A study of Mus musculus with 30 samples.

Results

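Liver X receptors (LXRs) are nuclear receptors that sense oxysterols, the oxidised forms of cholesterol, and bind DNA together with a retinoid X receptor (RXR). When activated they raise the transcription of genes that move cholesterol out of the cell, load it onto lipoproteins and limit its uptake. Microglia are the macrophages that live in brain and spinal cord tissue. They take up cholesterol-rich myelin debris after demyelination, and LXR-driven efflux is one route by which they dispose of it. Described here are 8 genes of that route, chosen by name and matched by Ensembl gene identifier to 8 of the 46078 genes in the deposited count table. They are the receptors Nr1h3 (LXRα) and Nr1h2 (LXRβ), the efflux transporters Abca1 and Abcg1 with their relative Abca7, Mylip (a ubiquitin ligase that limits lipoprotein uptake), Ch25h (the enzyme that makes 25-hydroxycholesterol) and Pltp (phospholipid transfer protein). All 8 passed the filter on low counts.

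The libraries were made from microglia of C57BL/6 mice during experimental autoimmune encephalomyelitis (EAE), a mouse model of multiple sclerosis, or from naive mice without it. The sort kept live cells that were CD11b+, CD45int and negative for Ly6G, or positive for eYFP, or both. WT mice were Atg7wt/wt Cx3cr1CreERT2 and Atg7 KO mice were Atg7fl/fl Cx3cr1CreERT, so the controls carried the tamoxifen-inducible Cre as well; Atg7 is an enzyme needed to form autophagosomes. The Cx3cr1 promoter that drives the Cre is active in microglia and also in other mononuclear phagocytes. Per the labels' protocols, tamoxifen was given 3 times at 4 mg, 48 h apart, and EAE was started at least 18 days later with recombinant mouse myelin oligodendrocyte glycoprotein (residues 1 to 125) and pertussis toxin. The old mice are labelled Atg7 WT, and no age is given beyond the word old. The 8 groups were naive WT (n = 4), naive KO (n = 4), naive old (n = 4), day 21 WT (n = 3), day 21 KO (n = 4), day 35 WT (n = 4), day 35 KO (n = 4) and day 35 old (n = 3). Lysates of sorted cells from females and males were pooled in equal parts, and the number of animals behind a library is not stated, so the p-values below measure the spread between these pools. The library called day 35 WT 3 is titled WT, while its knockout status reads KO.

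Library totals ran from 4712803 to 11034565 counts, with a median of 6769302. The summed CPM (library-scaled counts, with TMM factors) of 10 homeostatic microglia markers, P2ry12 and Tmem119 among them, lay between 9340 and 31873 in every library. Neutrophil markers (10 genes, including S100a8 and Ly6g) were present despite the Ly6G-negative sort gate. Their sum was 1467 to 15895 CPM in naive WT, 113 to 2472 in naive KO and 6620 to 12641 in naive old, against 4.38 to 37.6 in day 35 WT and 7.32 to 28.3 in day 21 WT. At day 21 the sum of 10 monocyte markers was 2202 to 3036 CPM in KO and 176 to 493 in WT, and the homeostatic sum was 9993 to 10654 in KO and 18388 to 21230 in WT. The library day 35 old 1 stood apart, with a neutrophil sum of 31190 CPM and a monocyte sum of 4907. EAE scores were 2.0 to 3.0 in day 21 WT and 2.75 to 3.0 in day 21 KO, and 1.0 to 1.5 in day 35 WT, 2.5 to 3.0 in day 35 KO and 2.75 to 3.0 in day 35 old, so at day 35 genotype or age and disease score cannot be told apart. Atg7 itself was at 31.6 ± 6.32 CPM in naive WT and 20.2 ± 8.62 in naive KO (SD, n = 4 each). During EAE it was higher in KO, at 31.0 to 36.9 CPM against 19.8 to 25.3 in WT at day 21. At day 35 it was at 30.3 to 33.8 CPM in KO and 21.3 to 23.8 in WT. Its KO versus WT difference passed the test at no time point (log2 -0.65 in naive mice, 0.50 at day 21 and 0.53 at day 35). A count over the whole gene does not show the loss of an exon. In bulk samples such as these, fewer cells of a type and less RNA per cell cannot be told apart.

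Per length, the 8 genes covered a wide range. In CPM per kilobase of exon in naive WT, Mylip stood highest at 153 ± 17.8, followed by Abca1 at 77.8 ± 14.0, Abcg1 at 25.2 ± 1.12, Nr1h2 at 22.9 ± 2.47, Abca7 at 12.8 ± 3.24, Pltp at 4.68 ± 1.79, Ch25h at 0.980 ± 1.30 and Nr1h3 at 0.523 ± 0.0742 (SD, n = 4). Of the receptors, LXRβ was therefore the abundant one in these cells and LXRα was near the detection limit, with 5 to 11 counts in each naive WT library. Abcg1 and Nr1h2 changed places when the longest transcript was used as the length. Across the 8 groups, the means of log2 CPM spanned 0.20 for Abcg1, 0.34 for Nr1h2 and 0.41 for Abca1, against 4.29 for Ch25h, 2.48 for Pltp and 2.33 for Nr1h3. Among all genes tested those spans rank at the 1.04, 8.97 and 14.1 percentiles and at the 98.5, 91.4 and 89.8 percentiles. Mylip and Abca7 lay between, with spans of 0.84 and 0.78. Means over all libraries were 10.8, 11.1 and 2.82 CPM for Ch25h, Pltp and Nr1h3. For Abcg1, Nr1h2 and Abca1 they were 191, 81.4 and 942 CPM. The SD within groups, pooled in log2 CPM, was 0.75, 0.74 and 0.68 for Ch25h, Pltp and Nr1h3. It was 0.19, 0.15 and 0.14 for Abcg1, Nr1h2 and Abca1. A larger spread within groups also widens a span, and the percentiles are not matched for level.

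**Figure D1:**
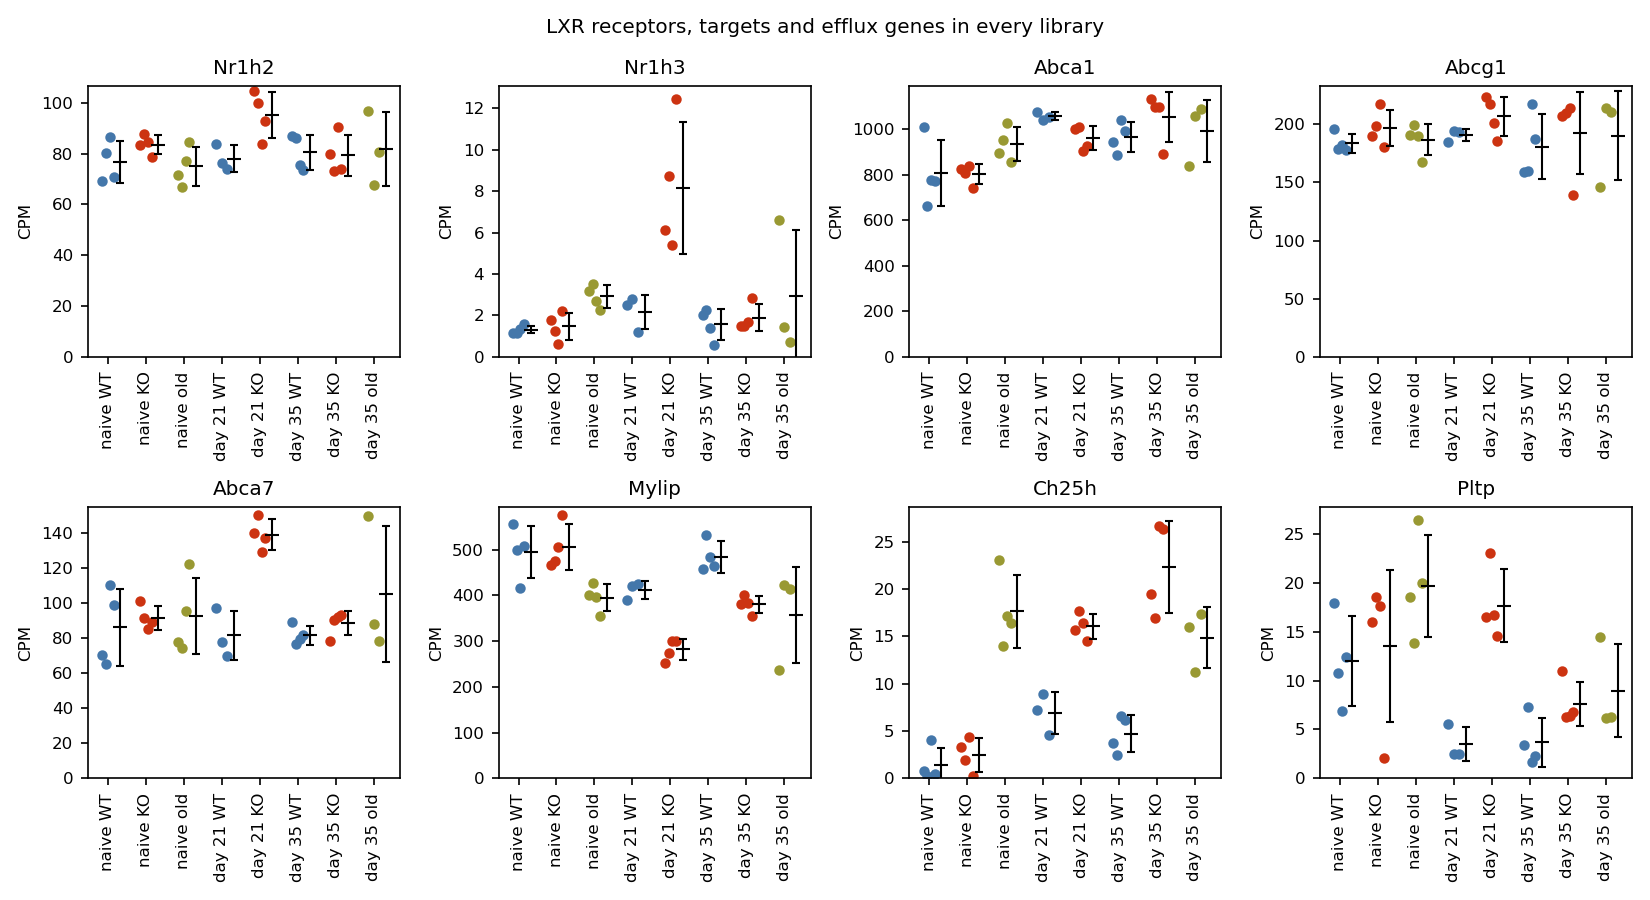
CPM of the 8 genes (vertical axes, each starting at 0) in every library of the 8 groups; points are libraries, coloured by WT, KO and old, and black marks give the group mean ± SD. Abcg1 and Nr1h2 stay level, Nr1h3 and Abca7 stand highest in day 21 KO, and Ch25h is low in the young naive groups and high in the naive old group.

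The comparisons below use edgeR's quasi-likelihood test on the counts, with Benjamini-Hochberg adjusted p over all 13880 genes tested and a threshold of 0.05. Of the 8 genes, 4 passed between KO and WT at day 21, where 19.0% of all genes did: Nr1h3, Abca7 and Pltp were higher in KO and Mylip was lower. At day 35 Ch25h alone passed (1 of 8, against 2.62% of all genes), higher in KO. In naive mice 0 of 8 passed, against 0.288% of all genes; 0 of the 8 had an unadjusted p under 0.05, and DESeq2 called 0. The median log2 difference of the 8 genes was 0.11 in naive mice, 0.53 at day 21 and 0.12 at day 35, beside medians of -0.02, 0.00 and -0.00 over all genes.

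Within WT, 3 of 8 passed from naive to day 21 (21.5% of all genes): Abca1 and Ch25h were higher and Pltp lower. From naive to day 35 the count was 2 of 8 (19.1% of all genes), Ch25h higher and Pltp lower, and from day 21 to day 35 it was 0 of 8 (0.0648% of all genes; 0 unadjusted, 0 by DESeq2). Within KO, 4 of 8 passed from naive to day 21, where 45.2% of all genes did: Nr1h3, Abca7 and Ch25h were higher and Mylip lower. From naive to day 35 in KO, 3 of 8 passed (21.4% of all genes), Abca1 and Ch25h higher and Mylip lower. From day 21 to day 35 in KO, 3 of 8 passed (24.9% of all genes): Nr1h3 and Abca7 fell and Mylip rose. The naive to EAE comparisons of a genotype share their naive libraries. All comparisons that include day 21 KO share its libraries, so calls of the same gene in them are not independent.

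Between old and young WT mice, 1 of 8 passed when naive (8.18% of all genes), Ch25h, and 2 of 8 at day 35 (9.45% of all genes), Ch25h higher and Mylip lower in old. In old mice from naive to day 35, 0 of 8 passed (18.4% of all genes; Pltp had an unadjusted p of 0.0324, and DESeq2 called 0). Between naive KO and naive old, 1 of 8 passed (11.8% of all genes), again Ch25h. At day 35 between KO and old, 0 of 8 and 0 of all genes passed with edgeR, with 0 of the 8 at an unadjusted p under 0.05 and 0 by DESeq2; without day 35 old 3, 511 genes passed, none of the 8 among them. A share of 1 or 2 in 8 genes is coarse beside these percentages, and no count here is read as particular to the 8 genes.

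**Figure D2:**
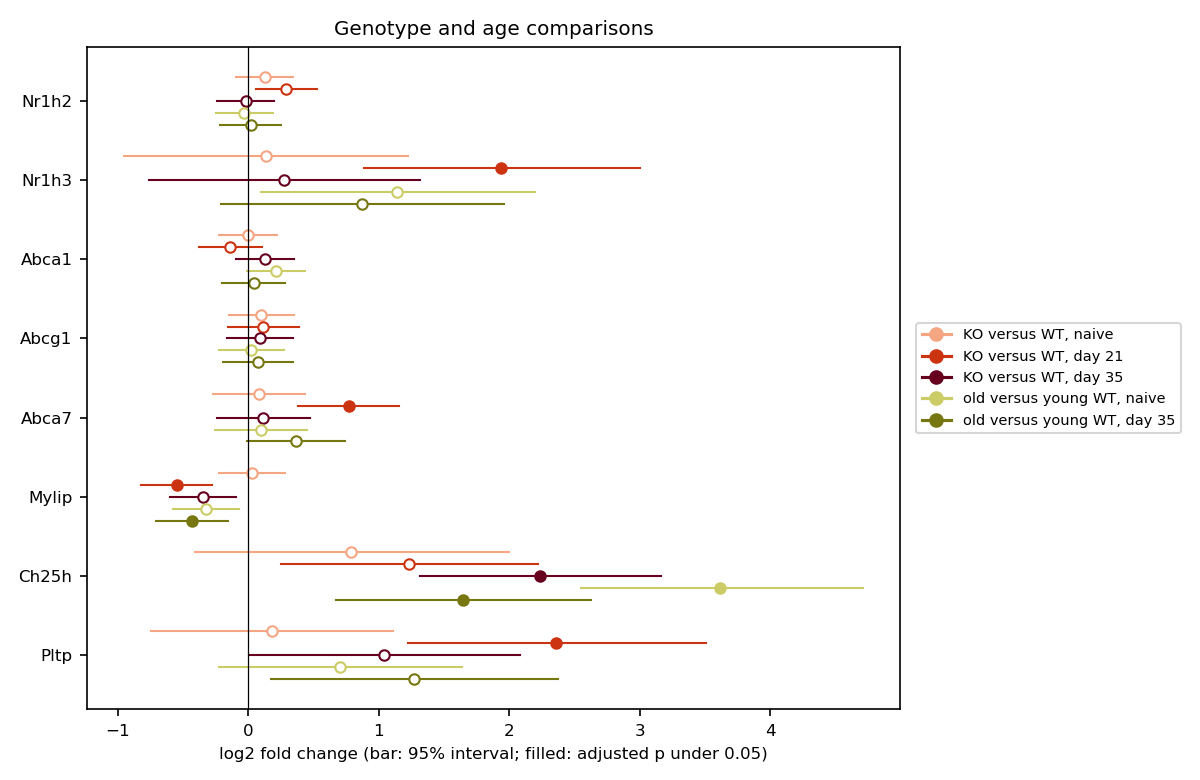
Log2 fold change of the 8 genes (horizontal axis, bars are 95% intervals) between KO and WT in naive mice, at day 21 and at day 35, and between old and young WT in naive mice and at day 35; filled points have an adjusted p under 0.05. The filled points at day 21 are Nr1h3, Abca7 and Pltp to the right of 0 and Mylip to the left, while Ch25h is filled at day 35 and in both age comparisons.

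The abundant receptor, Nr1h2 (ENSMUSG00000060601, GRCm38 chr7:44549616-44553951, minus strand), was steady. Its group means ran from 75.1 ± 7.74 CPM in naive old (SD, n = 4) to 95.3 ± 9.17 in day 21 KO (n = 4), and every neighbouring pair of groups in that order overlapped. The 4 day 21 KO libraries were at 104.7, 99.99, 83.7 and 92.8 CPM and the 3 day 21 WT libraries at 83.9, 76.4 and 73.8, which just overlap. The difference of 0.29 in log2 (SE 0.11) had an adjusted p of 0.074, and it was 0.0138 in a fit restricted to these groups and 0.0469 without day 21 KO 3.

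The other receptor, Nr1h3 (ENSMUSG00000002108, chr2:91184061-91202834, minus strand), was raised in 1 group. In day 21 KO it reached 6.12, 8.72, 5.41 and 12.4 CPM (39, 47, 36 and 84 counts), whereas the 3 day 21 WT libraries were at 2.51, 2.78 and 1.22 CPM. All 4 KO libraries lay above all 3 WT libraries. Nr1h3 was 3.82-fold higher in KO at day 21 (log2 1.93, SE 0.52, adjusted p = 0.0093). Without the library day 21 WT 3 the log2 difference was 1.62 with an adjusted p of 0.0765, so that call did not hold in every fit that left out 1 library. Over all genes, that fit called 1374, against 2642 with all libraries. Against naive KO (1.77, 1.26, 0.643 and 2.20 CPM) the rise was 5.57-fold (log2 2.48, SE 0.48, adjusted p = 0.00012). By day 35 the KO libraries were back at 1.49, 1.497, 1.69 and 2.85 CPM, a fall of 4.28-fold from day 21 (log2 -2.10, SE 0.47, adjusted p = 0.0017). The rise and the fall each passed in every fit that left out 1 library. The test of whether KO and WT differed in their change from naive to day 21 gave log2 1.80 (SE 0.74) and an adjusted p of 0.11. With 0.577 to 2.28 CPM, day 35 WT overlapped day 35 KO, and the log2 difference there was 0.27 (95% interval -0.76 to 1.32).

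Naive old libraries held 3.18, 3.50, 2.72 and 2.27 CPM of Nr1h3 and naive WT libraries 1.18, 1.17, 1.35 and 1.57. These groups do not overlap, but the log2 difference of 1.13 (SE 0.51) had an adjusted p of 0.17. In day 35 old, the library that stood apart (old 1) had 6.60 CPM and the others 1.46 and 0.724. Without it the log2 difference between old and WT at day 35 went from 0.87 to -0.49, neither passing the test. At day 21, where Nr1h3 was higher in KO, monocyte markers were higher in KO as well (5 of 10 passed) and homeostatic markers lower (9 of 10 passed). Of all genes, 19.0% passed in that comparison. Of 9 T and NK cell markers, 4 had enough counts to be tested, and all 4 were higher in KO there too. The sums over all 9 were 18.8 to 24.0 CPM in KO against 1.31 to 4.52 in WT. Also higher were 4 of 9 border macrophage markers, a list that shares F13a1 with the monocyte list. Erythroid markers were lower (5 of 5, sums of 0.785 to 4.00 against 26.0 to 81.5 CPM). The part of these shifts in the day 21 results for Nr1h3, Abca7, Mylip and Pltp was not tested. A short transcript on the same strand, Gm13783, overlaps Nr1h3 and had 110 counts over all libraries.

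Abca1 (ENSMUSG00000015243, chr4:53030787-53159895, minus strand) moves cholesterol and phospholipid onto lipid-poor apolipoproteins and is the standard readout of LXR activity in macrophages. LXR and RXR bind as a pair to a DR4, direct repeats of a half-site spaced by 4 bases. The 250 bases before its RefSeq start (GRCm38.p6, chr4:53159896-53160145, minus strand) are shown because Abca1 is the gene by which this route is usually read; capitals mark the closest match to AGGTCA repeated after 4 free bases, which lies on the opposite strand from position -67 to -52.
Abca1 upstream: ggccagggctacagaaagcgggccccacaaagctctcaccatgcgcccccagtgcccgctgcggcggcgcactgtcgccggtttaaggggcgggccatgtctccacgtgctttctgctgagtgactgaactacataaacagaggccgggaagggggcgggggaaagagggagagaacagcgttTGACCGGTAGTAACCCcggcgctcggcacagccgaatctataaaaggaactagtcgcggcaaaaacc
Read in the motif's direction the match is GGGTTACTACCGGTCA, with 3 mismatches in the 12 fixed letters. The limit of 3 was chosen after the sequences were seen. Within 250 bases before and 50 after the start, 21.9% of the 32851 RefSeq promoters hold a match with at most 3 mismatches on either strand, and 3.02% one with at most 2. Of the 7 genes of this group with a promoter in the table, Abca1 had the match with 3 mismatches and 0 had one with 2 or fewer.

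Abca1 was the most highly counted of the 8 genes and moved little. The naive WT libraries were at 1010, 664, 778 and 775 CPM, and the naive KO libraries at 828, 807, 840 and 743. All 3 day 21 WT libraries, at 1078, 1042 and 1054 CPM, lay above every naive WT library, 1.31-fold higher by the fit (log2 0.39, SE 0.12, adjusted p = 0.017). That call was lost without naive WT 2 or without day 21 WT 1, where the adjusted p rose to at most 0.080. In KO the day 35 libraries (1134, 1097, 1098 and 892 CPM) were also 1.31-fold above naive (log2 0.39, SE 0.11, adjusted p = 0.011), and the adjusted p was 0.051 without naive KO 1. The KO versus WT difference did not pass at any time: the log2 differences were -0.00 in naive mice (95% interval -0.23 to 0.22), -0.14 at day 21 (-0.38 to 0.10) and 0.13 at day 35 (-0.10 to 0.35). At day 21 all 4 KO libraries (1002, 1010, 907 and 925 CPM) nonetheless lay below all 3 WT libraries. They lay above all naive KO libraries, with a log2 difference of 0.26 and an adjusted p of 0.0548, which passed with RLE factors, DESeq2, a minimum count of 50 and only the groups compared (0.0124 to 0.041).

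Abcg1 (ENSMUSG00000024030, chr17:31057675-31117988, plus strand) passes cholesterol to mature HDL particles and is the other classic LXR target. It passed in none of the 14 pairwise comparisons and none of the 4 tests of a difference between changes. Group means ran from 181 ± 27.7 CPM in day 35 WT (SD, n = 4) to 206.7 ± 17.1 in day 21 KO (n = 4), and neighbouring groups all overlapped. The largest KO versus WT difference was 0.12 in log2 at day 21 (95% interval -0.16 to 0.39).

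Abca7 (ENSMUSG00000035722, chr10:79996494-80015572, plus strand), a transporter close to Abca1 in sequence whose human counterpart is a risk gene for Alzheimer's disease, was raised in the same group as Nr1h3. The day 21 KO libraries were at 140, 150.1, 129 and 137 CPM, and the day 21 WT libraries at 97.1, 77.9 and 69.9. The groups do not overlap, and Abca7 was 1.70-fold higher in KO (log2 0.77, SE 0.19, adjusted p = 0.0052). Its naive KO level was 100.9, 91.3, 84.9 and 89.0 CPM, so the rise to day 21 was 1.52-fold (log2 0.60, SE 0.17, adjusted p = 0.0055). By day 35 the KO libraries were at 78.3, 89.99, 91.9 and 93.2 CPM, 1.57-fold below day 21 (adjusted p = 0.0067). In WT the level did not move past the threshold, with a log2 change to day 21 of -0.08 (95% interval -0.47 to 0.30). The 3 calls in KO held in each fit that left out 1 library, though all 3 use the same day 21 KO libraries. The test of whether KO and WT differed in their change to day 21 gave log2 0.68 (SE 0.25) and an adjusted p of 0.082, or 0.79 and 0.0481 without naive WT 2. For the change from day 21 to day 35, 0 of the 8 genes passed that test (2.67% of all genes; Abca7 and Nr1h3 had an unadjusted p under 0.05, and DESeq2 called 0). Outside day 21 KO, the highest library was day 35 old 1 at 150 CPM, beside 87.7 and 78.3 in the other day 35 old libraries.

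Mylip (ENSMUSG00000038175, chr13:45389742-45412022, plus strand), an LXR target whose product is a ubiquitin ligase that limits lipoprotein uptake, went the opposite way. In day 21 KO the libraries were at 252, 273, 301.3 and 300.9 CPM, below every day 21 WT library (390, 422 and 426). The fall was 1.46-fold (log2 -0.55, SE 0.13, adjusted p = 0.0046) and passed in each fit that left out 1 library. From naive KO (465, 475, 507 and 575 CPM) to day 21 the fall was 1.79-fold (log2 -0.84, SE 0.12, adjusted p = 3.7e-06). By day 35 the KO libraries had come up to 381, 401, 384 and 356 CPM (log2 0.43 above day 21, SE 0.12, adjusted p = 0.012), still below naive KO (log2 -0.41, adjusted p = 0.019). The last call was lost without naive KO 4 or without day 35 KO 4, with adjusted p of 0.0581 and 0.0655, and with day 35 WT 3 moved to KO, with 0.0582. Day 35 WT libraries were at 457, 533, 484 and 464 CPM, all above the day 35 KO libraries, yet the log2 difference of -0.35 (SE 0.12) had an adjusted p of 0.12. Leaving out day 35 old 1, day 35 WT 3 and naive KO 4 together, a choice made after seeing the data, left that difference at -0.35 and brought its adjusted p to 0.0188. In WT the change from naive to day 21 did not pass (log2 -0.26, SE 0.13, adjusted p = 0.16). Mylip was the 1 gene of the 8 to pass the test of a difference between the KO and WT changes from naive to day 21 (9.68% of all genes passed it), at log2 -0.58 (SE 0.18, adjusted p = 0.0427). Leaving out 1 library at a time lost that call in 13 of 15 fits, with adjusted p from 0.0286 to 0.108.

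In old mice Mylip was at 401, 427.5, 397 and 355 CPM when naive, against 556, 500, 417 and 508 in naive WT (log2 -0.33, SE 0.12, adjusted p = 0.10). At day 35 the old libraries were at 237, 423 and 413.5 CPM, and the log2 difference from WT was -0.44 (adjusted p = 0.039). The lowest of them is day 35 old 1; without it the difference was -0.21 with an adjusted p of 0.53. The call was also lost without any 1 of the 4 day 35 WT libraries, with adjusted p of 0.0582 to 0.113. The libraries with the lowest Mylip, those of day 21 KO and day 35 old 1, also had the lowest homeostatic marker sums (9993 to 10654 and 9340 CPM) and the highest monocyte sums (2202 to 3036 and 4907 CPM); their part in the result was not tested.

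Ch25h (ENSMUSG00000050370, chr19:34473778-34475164, minus strand) makes 25-hydroxycholesterol, an oxysterol that can activate LXRs, holds back sterol synthesis and acts in antiviral defence. It is a gene without introns and is induced in macrophages by inflammatory signals. The annotated 5' neighbourhood is shown because Ch25h had the widest range of the 8 genes; capitals mark the motif TGACGTCA, known as the full cyclic AMP response element, which was picked after the sequence was seen. The bases shown are those before the RefSeq start that lie outside the annotated gene (GRCm38.p6, chr19:34475165-34475398, minus strand).
Ch25h upstream: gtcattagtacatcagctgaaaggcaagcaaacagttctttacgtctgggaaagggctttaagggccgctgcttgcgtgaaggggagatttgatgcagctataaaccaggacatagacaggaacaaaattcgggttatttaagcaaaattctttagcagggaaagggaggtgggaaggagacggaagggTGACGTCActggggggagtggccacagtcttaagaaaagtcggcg
The motif reads the same on both strands and begins at position -61. It occurs in 1.79% of all RefSeq promoters and in 1 of the 7 genes of this group that have one in the table. No DR4 match with 3 or fewer mismatches was in this window.

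Ch25h was lowest in young naive microglia, with naive KO overlapping day 35 WT, and highest in the old and KO EAE groups. Naive WT libraries held 0.735, 0.235, 4.04 and 0.428 CPM (5, 1, 27 and 3 counts), and naive KO libraries 3.27, 1.93, 4.37 and 0.293 CPM. Naive old libraries were at 23.1, 14.0, 17.1 and 16.4 CPM (167, 96, 88 and 94 counts), all far above both young groups. The old to young difference was 12.2-fold (log2 3.61, SE 0.53, adjusted p = 0.00013), and old was 7.08-fold above naive KO (log2 -2.82 for KO minus old, SE 0.48, adjusted p = 0.00059). Both calls held in each fit that left out 1 library. The size depends on naive WT 3, the library with 27 counts and the highest neutrophil and monocyte sums of its group: without it the log2 difference was 5.11. Neutrophil and monocyte marker sums overlapped between naive old and naive WT. Of these markers, 0 of 10 neutrophil and 0 of 10 monocyte markers passed between them (8.18% of all genes did). Between naive old and naive KO the sums did not overlap. They were 6620 to 12641 against 113 to 2472 CPM for neutrophils and 958 to 1497 against 35.5 to 505 for monocytes. In either list 0 of 10 markers passed there (11.8% of all genes did). The part of these cells in the Ch25h result was not tested.

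Ch25h was higher during EAE than in naive mice in both young genotypes. In WT it was at 7.20, 8.93 and 4.58 CPM at day 21 and 3.72, 2.43, 6.58 and 6.21 CPM at day 35. The rise from naive was 4.73-fold to day 21 (log2 2.24, SE 0.57, adjusted p = 0.0061) and 3.28-fold to day 35 (log2 1.72, SE 0.56, adjusted p = 0.031). Without naive WT 3 the log2 rises were 3.74 and 3.21, and in a fit restricted to the groups compared the adjusted p was 0.0559 and 0.108. The day 35 rise did not pass without naive WT 1, 2 or 4, nor without day 35 WT 1, 3 or 4, each left out singly, with an adjusted p of up to 0.10. In KO it was at 15.7, 17.6, 16.4 and 14.5 CPM at day 21 and 19.5, 16.9, 26.6 and 26.3 CPM at day 35. The rise from naive KO was 6.43-fold to day 21 (log2 2.69, SE 0.48, adjusted p = 6.3e-05) and 8.96-fold to day 35 (log2 3.16, SE 0.47, adjusted p = 7.2e-05), and both held in each fit that left out 1 library.

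The KO libraries lay above the WT libraries at both EAE time points. At day 35 the difference was 4.71-fold (log2 2.24, SE 0.45, adjusted p = 0.011); without day 35 WT 2 it was log2 2.02 with an adjusted p of 0.0646. At day 21 it was 2.35-fold (log2 1.23, SE 0.48, adjusted p = 0.071), while DESeq2 gave 0.0331 and a fit restricted to these groups 6.8e-05. Whether the change from naive differed between KO and WT was tested and did not pass, with log2 0.44 (95% interval -1.119 to 1.996) for day 21 and 1.45 (-0.09 to 2.98) for day 35. Both values rest on naive WT 3: without it they were -1.05 and -0.05. Of the 8 genes, 0 passed that test for day 35 (0.367% of all genes; Mylip alone had an unadjusted p under 0.05, and DESeq2 called 0). In old mice Ch25h was at 15.9, 11.2 and 17.4 CPM at day 35, overlapping naive old (log2 change -0.25, 95% interval -1.18 to 0.67). At day 35 old was 3.12-fold above WT (log2 1.64, SE 0.47, adjusted p = 0.03), a call that was lost without day 35 old 1 (log2 1.59, adjusted p = 0.37) and without day 35 old 3, day 35 WT 1 or day 35 WT 2 (adjusted p of 0.0533 to 0.0957). The test of whether old and young differed in their change to day 35 gave log2 -1.97 (SE 0.72) and an adjusted p of 0.25, and without naive WT 3 these were -3.47 and 0.0321. In all, 0 of the 8 genes passed that test (0.0432% of all genes; 1 of the 8 unadjusted, and 0 by DESeq2). Day 35 KO and day 35 old, the groups with the higher EAE scores, differed by log2 0.59 (95% interval -0.33 to 1.52).

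At day 35 the monocyte sum was 960 to 1409 CPM in KO and 99.9 to 311.9 in WT and the neutrophil sum 115.7 to 3267 in KO and 4.38 to 37.6 in WT; their part in the Ch25h result was not tested. In naive WT, where mean Ch25h was lowest, the neutrophil sum was 1467 to 15895 CPM. In day 21 KO, where Ch25h was among the highest, it was 47.1 to 99.4. Naive old was high in both, with a neutrophil sum of 6620 to 12641 CPM and Ch25h of 14.0 to 23.1 CPM. Within naive WT, the library with the most Ch25h (WT 3, 4.04 CPM) also had the highest neutrophil sum. The part of neutrophils in these levels was not tested. A noncoding gene on the opposite strand, Gm26902, starts at the same promoter and had 229 counts over all libraries. It too was higher in naive old than in naive WT (log2 2.98, SE 0.82, adjusted p = 0.016) and in KO at day 35 than in naive KO (log2 3.42, SE 0.65, adjusted p = 0.00041). At day 35 it did not pass between KO and WT (log2 1.41, SE 0.54, adjusted p = 0.15) or between old and WT (log2 0.57, SE 0.60, adjusted p = 0.63). In the other comparisons where Ch25h passed, Gm26902 passed in the same direction. Naive WT libraries held at most 0.285 CPM of it, and reads of these overlapping genes may not be separated.

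**Figure D3:**
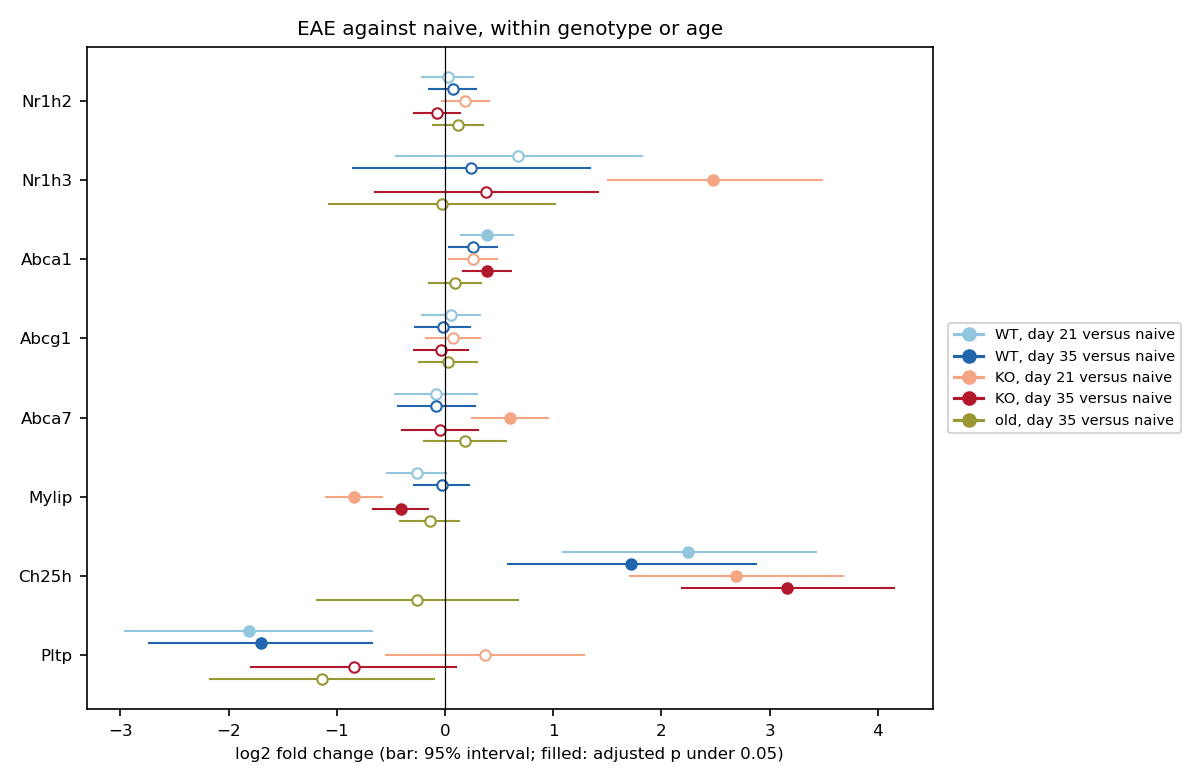
Log2 fold change of the 8 genes (horizontal axis, bars are 95% intervals) from naive to day 21 and to day 35 within WT and within KO, and from naive to day 35 in old mice; filled points have an adjusted p under 0.05. Ch25h is filled and to the right in all WT and KO comparisons and near 0 in old mice, Pltp is filled to the left in WT, and Mylip is filled to the left in KO.

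Pltp (ENSMUSG00000017754, chr2:164839518-164857711, minus strand) is an LXR target that transfers phospholipid between lipoproteins. Naive WT libraries were at 17.9, 10.8, 6.88 and 12.4 CPM, and in WT with EAE the gene was lower, at 5.53, 2.49 and 2.52 CPM on day 21 and 3.43, 7.30, 1.72 and 2.31 CPM on day 35. The fall was 3.50-fold to day 21 (log2 -1.81, SE 0.55, adjusted p = 0.021) and 3.25-fold to day 35 (log2 -1.70, SE 0.50, adjusted p = 0.02). Each call was lost when some single libraries were left out: naive WT 1, day 21 WT 2 or day 21 WT 3 for the first, with an adjusted p of up to 0.095 (and 0.0598 with no filter on low counts), and naive WT 1 or day 35 WT 1, 3 or 4 for the second, with up to 0.061.

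In KO the day 21 level stayed where the naive level was. The day 21 KO libraries were at 16.5, 23.0, 16.7 and 14.5 CPM and the naive KO libraries at 15.95, 18.6, 17.6 and 2.05, of which the last, naive KO 4, stood apart (log2 change 0.37, 95% interval -0.55 to 1.29). Pltp was thus 5.13-fold higher in KO than in WT at day 21 (log2 2.36, SE 0.55, adjusted p = 0.0042), with no overlap between libraries, and that call held in each fit that left out 1 library. The test of a difference between the KO and WT changes gave log2 2.18 (SE 0.71) and an adjusted p of 0.0505; it was 1.83 and 0.0402 without naive KO 4 and 2.62 and 0.0418 without day 21 WT 1, and DESeq2 gave an adjusted p of 0.0151. By day 35 the KO libraries were at 10.99, 6.29, 6.34 and 6.83 CPM, overlapping the highest day 35 WT library (log2 1.04, SE 0.51, adjusted p = 0.26). From naive to day 35 in KO the log2 change was -0.84 (adjusted p = 0.20), and -1.19 with an adjusted p of 0.0205 without naive KO 4. Old mice had 18.5, 13.8, 26.4 and 19.9 CPM when naive and 14.5, 6.22 and 6.22 at day 35 (log2 -1.14, SE 0.50, adjusted p = 0.11); without day 35 old 1, the library at 14.5 CPM, the change was -1.65 with an adjusted p of 0.0446.

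In most groups Pltp was high where markers of border macrophages were high, the macrophages of the meninges and perivascular spaces (9 genes, among them Mrc1, Cd163, Lyve1 and Pf4). Their summed level was 268 to 393 CPM in naive WT and 244 to 331 in day 21 KO, where Pltp was high, and 14.9 to 66.1 in day 21 WT and 10.0 to 85.5 in day 35 WT, where it was low. In naive KO 4 the sum was 27.7 CPM, against 225 to 294 in the other naive KO libraries, and in day 35 old 1 it was 370 CPM, against 20.4 and 40.3. Day 35 KO went against this: its sums, 25.2 to 82.3 CPM, were within the range of day 35 WT, while its Pltp was 6.29 to 10.99 CPM against 1.72 to 7.30. Its library KO 1, with a sum of 44.6 CPM, had as much Pltp as naive WT 2, with a sum of 327.9. Day 35 old 2 and old 3 also had low sums, 40.3 and 20.4 CPM, with Pltp of 6.22 CPM each. That was above day 35 WT 1, 3 and 4 (3.43, 1.72 and 2.31 CPM) and below day 35 WT 2 (7.30). At day 21, 4 of the 9 markers passed between KO and WT, all higher in KO (19.0% of all genes passed). From naive to day 21 in WT 7 of the 9 passed, all lower (21.5% of all genes). From naive to day 21 in KO, 2 passed as higher and 2 as lower (45.2% of all genes). F13a1 is in this list and in the monocyte list, so their counts and sums are not separate. No marker of the list was at 0 throughout a group, and the part of these cells in the Pltp result was not tested. Ctsa, a lysosomal protease gene that overlaps Pltp on the opposite strand with 157350 counts in all, passed neither of these comparisons: its KO versus WT difference at day 21 was log2 -0.40 (SE 0.15, adjusted p = 0.069) and its WT change from naive to day 21 was 0.07 (SE 0.16).

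**Figure D4:**
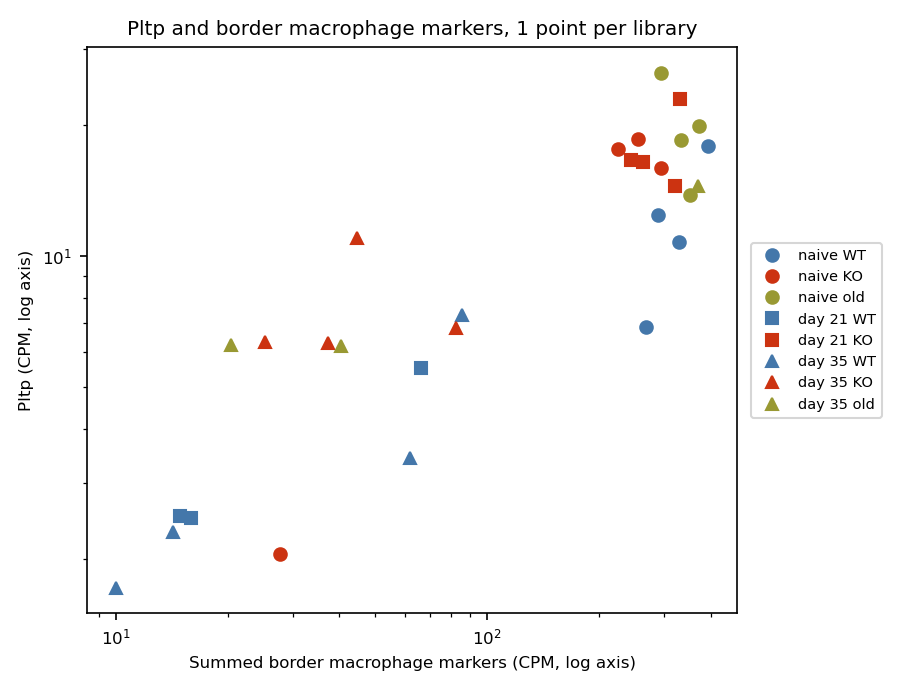
Pltp (vertical axis, CPM, log scale) against the summed border macrophage markers (horizontal axis, CPM, log scale), 1 point per library, colour for WT, KO and old and shape for naive, day 21 and day 35. The libraries of naive WT, naive old and day 21 KO, with marker sums of 244 to 393 CPM, have Pltp between 6.88 and 26.4 CPM, and the naive KO library at 2.05 CPM lies with the low sums.

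The genes that surround this route were read from lists of the pathway, to all of which the following shares apply. Of all genes, 19.0% passed between KO and WT at day 21 and 2.62% at day 35. Between old and young WT, 8.18% passed when naive and 9.45% at day 35. Of 12 other LXR targets tested, 5 passed between KO and WT at day 21. Apoc2, an apolipoprotein that activates lipoprotein lipase, was higher in KO (log2 3.56, SE 0.68, adjusted p = 0.00086), at 38.8 to 49.0 CPM against 2.05 to 7.03 in WT, and Smpdl3a, a phosphodiesterase, was higher too (log2 1.35, SE 0.41). Lpcat3, which remodels membrane phospholipids, Mertk, a receptor for apoptotic cells, and Arl4c, named after its values were seen, were lower (log2 -0.53, -0.37 and -0.38). At day 35, 3 of 12 passed, all higher in KO: the lipase Lpl (log2 2.05, SE 0.27, adjusted p = 0.00022), Apoc1 (log2 3.23, SE 0.55) and Apoe, the main lipoprotein component made by glia (log2 2.22, SE 0.52, adjusted p = 0.03). The median of the 12 was -0.02 at day 21 and 0.55 at day 35, beside 0.00 and -0.00 over all genes. Abca1 and Abcg1 did not pass at either time. In naive old against naive WT, 2 of 12 passed, Lpl (log2 2.80, SE 0.28, adjusted p = 1.7e-06) and Apoe (log2 1.86, SE 0.52), and in the day 35 age comparison 4 of 12, Lpl, Apoc2, Smpdl3a and Apoc1, all higher in old.

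**Figure D5:**
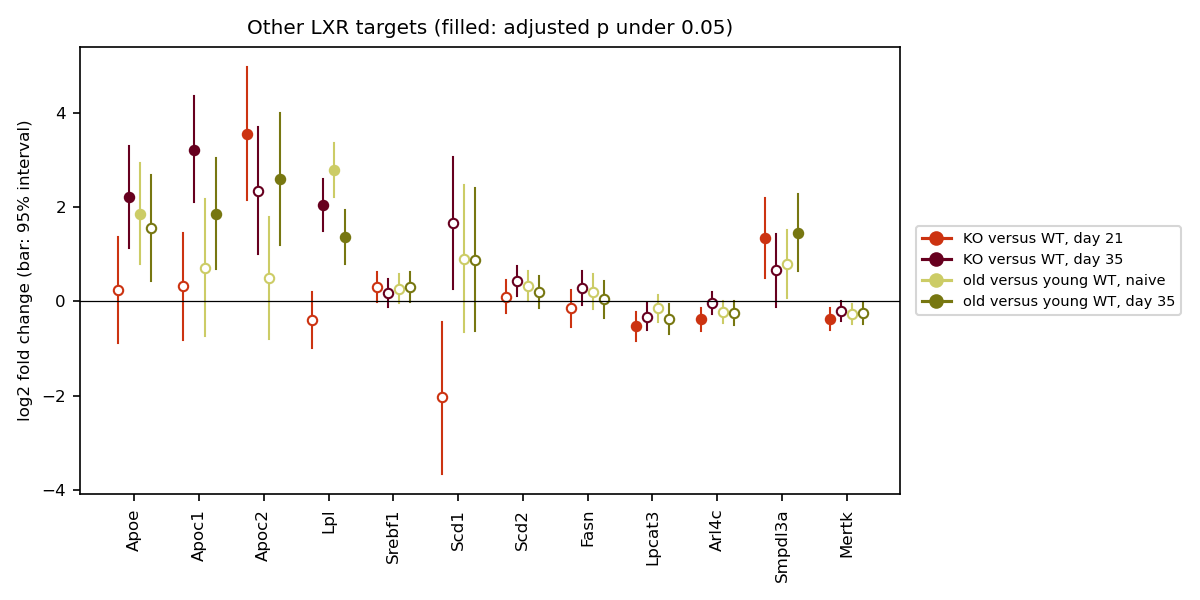
Log2 fold change (vertical axis, bars are 95% intervals) of the 12 other LXR targets tested, between KO and WT at day 21 and day 35 and between old and young WT in naive mice and at day 35; filled points have an adjusted p under 0.05. Apoe, Apoc1 and Lpl are filled at day 35 in KO, Apoc2 is filled at day 21, and Srebf1, Scd1, Scd2 and Fasn have no filled point.

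Of the 8 RXR partners and coregulators, Rxrg alone passed between KO and WT at day 21, where it was lower (log2 -2.35, SE 0.71, adjusted p = 0.021), at 0.148 to 1.73 CPM against 4.58 to 5.19. Rxrg was also the 1 gene of this list to pass between naive old and naive WT, where it was higher (log2 4.17, SE 0.64, adjusted p = 0.00023), at 13.5 to 30.5 CPM against 0 to 3.44. Of 4 tested genes of oxysterol metabolism and sensing, Gpr183, the receptor for 7α,25-dihydroxycholesterol that is made from the product of Ch25h, passed at day 21 and was lower in KO (log2 -1.10, SE 0.18, adjusted p = 0.00014), at 35.6 to 44.6 CPM against 84.6 to 89.9. Of the 10 uptake and storage genes, 4 passed at day 21, all higher in KO, the comparison in which monocyte (5 of 10), border macrophage (4 of 9) and T and NK cell (4 of 4 tested) markers were higher and homeostatic markers lower (9 of 10); their part was not tested. Among them were the scavenger receptors Msr1 (log2 3.15, SE 0.65, adjusted p = 0.0018), Cd36 (1.71, SE 0.47) and Scarb1 (0.57, SE 0.14). Between naive old and naive WT, 5 of those 10 passed, all higher in old, including Soat1 (log2 0.59, SE 0.11), which esterifies cholesterol for storage, and Nceh1 (1.31, SE 0.26), which releases it again. Of 14 sterol synthesis genes, 2 passed at day 21, Mvd higher and Fdft1 lower in KO, 0 at day 35, and 2 in naive old against naive WT, Srebf2 and Cyp51, both higher. Of 7 other ABCA and ABCG transporters, Abca9 and Abcg3 passed at day 21, both lower in KO (log2 -1.09 and -0.57).

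Among the genes whose group means ran closest to a member's (root mean square difference over the 8 centred group means of log2 CPM, among genes of at least 5 CPM), those nearest to Ch25h were Cst7 (0.33), Fabp5 (0.35) and Spp1 (0.41), with Cst7 also the nearest over the 30 single libraries. Those nearest to Pltp were Trerf1 (0.15), Emp3 (0.23) and Dab2 (0.23), of which Dab2 was the nearest over the libraries. Those nearest to Nr1h3 were Hells (0.12), Ralgds (0.21) and Mlkl (0.22). These are descriptions over 8 points that share their libraries.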

How the data were processed

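The authors deposited 1 table of read counts per Ensembl gene, not normalized. Per the submitters' processing notes, CASAVA, bcl2fastq, STAR and the build GRCm38 were used; no source used here names the read counter or its strand setting, so reads of overlapping genes may not be separated. The table's columns were joined to samples through their plate wells numbered down the columns, by which all 30 titles match their group (along the rows, 2 do); 2 of the 32 columns belong to no sample used here. Groups follow the titles. EAE scores were used as deposited by the authors. Genes with low counts were removed by filterByExpr (at least 10 counts, total of 15 or more), and counts were scaled with TMM factors and fitted over 8 groups with edgeR 4.0.16 (glmQLFit, robust, and glmQLFTest; R 4.3.3, limma 3.58.1), with 22 residual degrees of freedom. Log2 CPM used a prior count of 2. The fit was tested on simulated data. Alternatives were RLE factors, DESeq2 1.42.0, no filter, a minimum count of 50, only the groups compared, robust=FALSE, the i5 index as a block, each library left out, and day 35 WT 3 moved to KO. The 8 genes, the lists and the rule for names (every one of the 8, and up to 4 genes of a list with the lowest adjusted p) were chosen with earlier results of these data known. Gene positions are from GENCODE M21 and promoters from RefSeq (GRCm38.p6), which held 7 of the 8 genes. A gene of the uptake and storage list is not reported here by name.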

Additional observations from a re-analysis of the deposited data

Results flagged for a closer look

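In groups of 4 libraries, the highest or lowest library was set against the other 3. Of 48 groups of values tested, 4 had a library apart, where chance gives about 1 in 20. Abca1 and Abcg1 were both low in day 35 KO 4, at 892 and 139 CPM. Pltp was low in naive KO 4, at 2.05 CPM, the naive KO library that also had the lowest border macrophage sum, 27.7 CPM. Pltp was high in day 35 KO 1, at 10.99 CPM. The change of Mylip from naive to day 21 differed between KO and WT by log2 -0.58 (edgeR adjusted p = 0.0427). That call was lost in most fits that left out 1 library, with an adjusted p of up to 0.108. It was also lost with the i5 index as a block (0.0681).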

How the results depend on the processing

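No call of the 8 genes changed direction under any alternative that was run. Of the 25 calls, RLE factors, DESeq2 and robust=FALSE lost 0, and no filter on low counts and fitting only the groups compared lost 4 each. A minimum count of 50 removed Nr1h3 from the test, and of the 22 calls that remained it lost 0. Over these settings KO versus WT at day 21 (4 calls) gave 3 to 6. WT from naive to day 21 (3 calls) gave 2 to 3, and KO from naive to day 21 (4 calls) gave 4 to 5. From KO versus WT at day 35 (1 call), leaving out 3 doubted libraries, a choice made after seeing the data, gave 2. WT from naive to day 35 (2 calls) gave 0 with no filter, 1 with only the groups compared and 0 with day 35 WT 3 moved to KO. KO from day 21 to day 35 (3 calls) gave 5 with only the groups compared and 5 with that library moved. Old versus WT at day 35 (2 calls) gave 1 with no filter, 0 with only the groups compared, 0 with that library moved, 1 with the i5 block and 0 without the 3 doubted libraries. Old mice from naive to day 35 (0 calls) gave 1 without the 3 libraries. KO versus old when naive (1 call) gave 2 with DESeq2, with a minimum count of 50, with only the groups compared and without the 3 libraries. The genotype by day 21 test (1 call) gave 2 with DESeq2, 2 with a minimum count of 50, 3 with only the groups compared, 2 with robust=FALSE, 0 with the i5 block and 4 without the 3 libraries. The genotype by day 21 to 35 test (0 calls) gave 1 with only the groups compared and 1 without the 3 libraries.

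Leaving out 1 library at a time gave 3 to 5 calls for KO versus WT at day 21, 0 to 1 at day 35, 2 to 3 for WT to day 21, 0 to 2 for WT to day 35, 2 to 3 for KO to day 35, 3 to 4 for KO from day 21 to day 35, 0 to 2 for old versus WT at day 35, 0 to 1 for old to day 35, 0 to 1 for the genotype by day 21 test and 0 to 1 for the age by day 35 test. Over all genes the count moved more: KO versus WT at day 21 gave 2642, and 1374 without day 21 WT 3 or 4559 with only the groups compared. Old versus WT at day 35 gave 1312, and 0 without day 35 old 1. KO versus WT gave 363 at day 35 (53 without day 35 WT 2) and 40 in naive mice (11 without naive KO 3). No paired analysis was possible because the replicate numbers were given in accession order and the labels name no shared animal or day. They do run with the i5 index in every group but day 21 WT, and the fit with that index as a block lost 2 calls, Mylip in old versus WT at day 35 (adjusted p = 0.0544) and in the genotype by day 21 test (0.0681), and gained 1, Pltp in KO from day 21 to day 35 (0.0461). Nr1h3, Ch25h in young naive mice and Pltp in WT with EAE rest on few counts, which limits their precision.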
